A study of Mus musculus with 8 samples.

Results

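The DNA replication and S phase genes examined here are 43 listed genes whose products license, start and carry out genome duplication. They were taken from the deposited count table by gene symbol, and all 43 were found among its 31894 genes. Breast cancer brain metastases (BCBM) were grown in adult female FVB mice, wild-type hosts, by injecting tumor organoid cells into the brain. The tumor cells came from PyMT mammary tumors carrying an E-cadherin reporter, E-cad-mCFP, and a nuclear Dendra2 label, and had been passaged serially in the brain. From each of 4 mice (57, 58, 67 and 70), cells with high (E-cadHI) and low (E-cadLO) reporter fluorescence were sorted, giving 8 bulk mRNA libraries, 1 of each population per mouse. Both populations share the oncogene, the reporter and the host strain, and they differ in the sort gate. The cytometric purity control was run on E-cadHI cells alone, because E-cadLO cells were too few. The study also imaged sorted cells of both populations and reported that their isolation had succeeded. E-cadherin is the adhesion protein of epithelial cells, and its loss marks cells that leave the epithelial state, so the comparison asks how E-cadLO cells differ from E-cadHI cells of the same tumor.

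Replication is prepared in G1, when the origin recognition complex, Cdc6 and Cdt1 load the ring-shaped Mcm2 to Mcm7 helicase onto DNA. Cyclin E kinase and E2F transcription factors then open S phase, Cdc45 and the GINS complex switch the helicase on, and polymerases copy both strands with the Pcna clamp and its Rfc loader, fed by ribonucleotide reductase and thymidylate enzymes. Most of these genes are transcribed in a wave at the G1 to S boundary through E2F sites in their promoters, so in proliferating tumors their transcripts are widely used as a readout of S phase.

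E2F core letters were present in part of the promoters. RefSeq promoter sequences (GRCm38.p6) were matched for 35 of the 43 genes, which together have 40 promoters, and the 250 bases before each start were searched on both strands for the E2F core TTCCCGC and its variants TTCGCGC, then TTGGCGC, and lastly TTGCCGC. A core was found in 16 of the 35 genes (45.7%), or in 18 of 40 promoters (45%), against 7.89% of all 32851 promoters of this length and 13.3% of the promoters of genes tested for expression. Of 55 further replication genes, 40% of the promoters held a core, and of 38 G2/M and mitosis genes 17.6% did. Base composition was close to that of the tested genes, with 60.1% G and C against 59.7%. The windows below show the core nearest to the RefSeq start in 6 of the genes described below, each 29 bases long and read along the gene's strand, with the core in capitals. A match is a description of letters and not evidence of binding.

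Prim1: ggaggcctgtcttgTTCCCGCcaattctc
Orc1: ttcggttagtgGCGCGAAaagttttctcc
Rpa2: gctgtcccttcGCGGGAAggagtttgtgg
Mcm6: ggacgggtttgGCGCGAAgtagctcagct
Chaf1a: ggttgccgcggTTCCCGCcaaatacgagc
Rrm1: aggagaactcgTTCCCGCcaggtccgctt

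The window of Prim1 lies at chr10:128015186-128015214 (plus strand), with its core 8 bases before the start. That of Orc1 lies at chr4:108579416-108579444 (plus strand), with its core 20 bases before the start. Rpa2 has its window at chr4:132768312-132768340 (plus strand), with the core 30 bases from the start. Mcm6 has its window at chr1:128359731-128359759 (minus strand), with the core 36 bases from the start. The window of Chaf1a is at chr17:56040358-56040386 (plus strand), with the core 40 bases before the start. That of Rrm1 is at chr7:102441617-102441645 (plus strand), with the core 60 bases before the start. The core is written in its sense orientation in Prim1, Chaf1a and Rrm1, and as the reverse complement in Orc1, Rpa2 and Mcm6. In Prim1, Orc1 and Rpa2 the window reaches into the gene's span in the deposited table, which starts before the RefSeq start.

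The libraries held 9102781 to 15769200 gene counts, and no replication gene had fewer than 40 counts in any library, so all 43 were tested, together with 13598 genes in all. Levels are given as normalized CPM, a gene's count relative to its library's total after scaling by edgeR's TMM factors, in the order of mice 57, 58, 67 and 70. Fitted levels of brain cell markers were mostly higher in E-cadLO libraries. The microglia and macrophage list summed to 39.1 to 324 CPM in E-cadHI and 255 to 1154 in E-cadLO. Of its log2 fold changes 15 of 15 were above 0, and only Ptprc of that list was at 0 in a library. In mouse 57, however, the astrocyte sum was 1142 CPM in E-cadHI and 721 CPM in E-cadLO. In that mouse 2 of 8 astrocyte, 2 of 8 oligodendrocyte and 2 of 8 neuron markers were lower. Median log2 fold changes were 1.72 for astrocyte markers (8 of 8 above 0), 1.98 for oligodendrocyte (7 of 8), 1.93 for neuron (8 of 8), 1.34 for endothelial (6 of 6 tested) and 5.55 for fibroblast and mural markers (7 of 7 tested, 2.58 with a replicate block for mouse), with 0 called in edgeR without the block. With the block, edgeR called 5 of 15 microglia and macrophage, 3 of 8 astrocyte, 2 of 8 oligodendrocyte and 1 of 8 neuron markers higher, beside 0.728% of all genes. Tubb3, Stmn2, Slc17a7, Cldn5, Kdr, Emcn, Lum and Pdgfrb of these lists were at 0 in at least 1 library. The part of these cells in the differences described below was not tested. Both libraries of mouse 70 stood apart in oligodendrocyte markers (8595 and 34452 CPM against at most 1619 in other E-cadHI and 4302 in other E-cadLO libraries), and the E-cadLO library of mouse 57 stood apart in fibroblast and mural markers (1197 CPM against at most 181).

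The replication genes were lower in E-cadLO than in E-cadHI cells in mice 57, 58 and 67 and level in mouse 70. Their summed level was 5063, 5112, 5045 and 3819 CPM in E-cadHI cells and 3528, 3554, 3665 and 3799 CPM in E-cadLO cells. The groups did not overlap, but the E-cadHI library of mouse 70 lay within 20.3 CPM of its E-cadLO partner. Under DESeq2's size factors the order in mouse 70 turned, to 3757 CPM in E-cadHI and 3765 CPM in E-cadLO cells, and the groups overlapped. Within mice the sum was lower by 30.3%, 30.5%, 27.4% and 0.532% under TMM. With total counts alone these decreases were 13.9%, 34.4%, 24.7% and 5.88%. The groups then overlapped, with E-cadLO of mouse 57 at 4205 CPM and E-cadHI of mouse 70 at 3673 CPM. Under TMM the 4 E-cadLO sums were close together (3636 ± 123, SD, n = 4), whereas those of E-cadHI spread further (4760 ± 628, SD, n = 4) with mouse 70 the lowest. Mouse 70 also held the most oligodendrocyte and astrocyte marker RNA in both populations, and their part in its lower E-cadHI sum was not tested. Its E-cadLO library had the highest level of these markers and a replication gene sum of 3799 CPM, near the other E-cadLO sums. A link between marker level and replication gene sum was not tested. In bulk libraries such as these, fewer cells in S phase and less replication RNA per cell cannot be told apart.

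**Figure D1:**
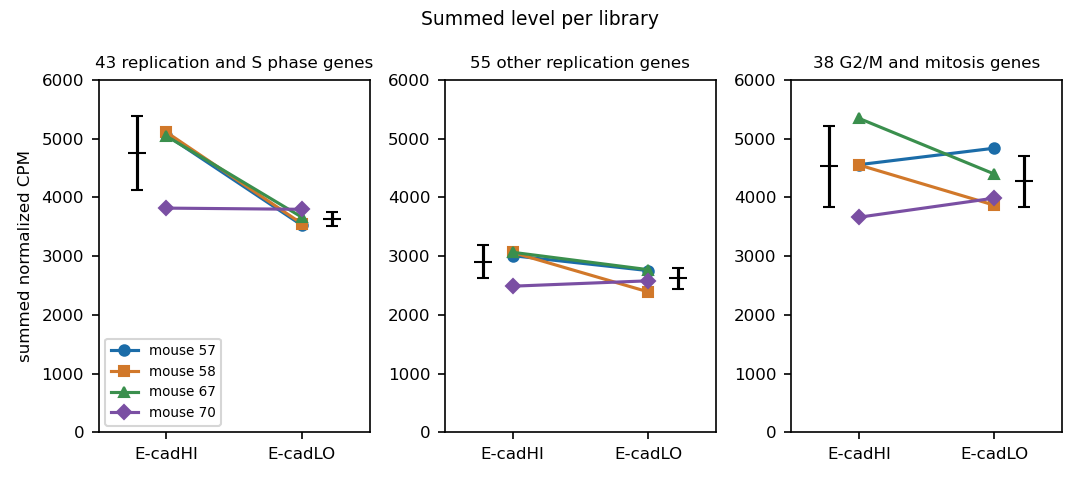
Summed normalized CPM of 3 gene lists in each library, with a line joining the E-cadHI and E-cadLO libraries of a mouse and black marks for the mean ± SD of 4 libraries. The sum of the 43 replication genes is lower in E-cadLO cells by 30.3%, 30.5% and 27.4% in mice 57, 58 and 67. In mouse 70 it is lower by 0.532%, a difference that turns under DESeq2's size factors. With total counts alone the decrease in mouse 57 is 13.9%. Lines for the G2/M and mitosis genes run in both directions.

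Across genes, 37 of the 43 log2 fold changes (E-cadLO minus E-cadHI) were below 0, with a median of -0.35, while 44.9% of all genes tested were below 0 with a median of 0.06. No replication gene passed an adjusted p of 0.05 in either direction in edgeR's quasi-likelihood test (0% of all genes were called lower and 0% higher). The smallest adjusted p was 0.262, for Rfc5, and at an unadjusted p under 0.05, 15 of the 43 were lower and 0 higher, beside 5.81% and 8.16% of all genes. The count of 15 became 6, 8 and 4 without mouse 57, 58 and 67, and 16 without mouse 70. The share of all genes is not given for these smaller fits, so their counts cannot be set against it. When mouse entered edgeR's model as a replicate block, 0 of the 43 were called again (0% of all genes lower, 0.728% higher). In that fit 16 of the 43 had an unadjusted p under 0.05 with a lower level, beside 7.33% of all genes, and 0 with a higher one, beside 12.3%. DESeq2 without the block called 0 of them (0.264% of all genes lower, 2.48% higher). DESeq2 with the block called 3 lower, Tk1, Rrm2 and Rfc5, and 0 higher (1.35% of all genes lower, 6.77% higher).

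Counted by mouse, 31, 42, 34 and 22 of the 43 were lower in E-cadLO cells of mice 57, 58, 67 and 70, beside 48.3%, 49.9%, 49% and 44.7% of all genes. The median within-mouse log2 ratios were -0.37, -0.49, -0.42 and -0.0044, the last of which became 0.0062 under DESeq2's size factors. In mouse 57 the size depended on scaling, because total counts alone gave a median of -0.06 with 23 genes lower. That scaling also moved the median of all genes in mouse 57 from 0.02 to 0.30, and relative to it the replication genes stood at -0.36 under total counts and -0.39 under TMM. In 16 genes the level was lower in E-cadLO cells of all 4 mice (14.2% of all genes), and in 0 was it higher in all 4 (16.8% of all genes). In 10 the groups did not overlap, with every E-cadLO library below every E-cadHI library (4.2% of all genes): Orc1, Gins2, Prim1, Pcna, Rfc2, Rfc5, Rpa2, Rrm1, Tyms and Tk1. In the opposite direction 0 did (3.9% of all genes).

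**Figure D2:**
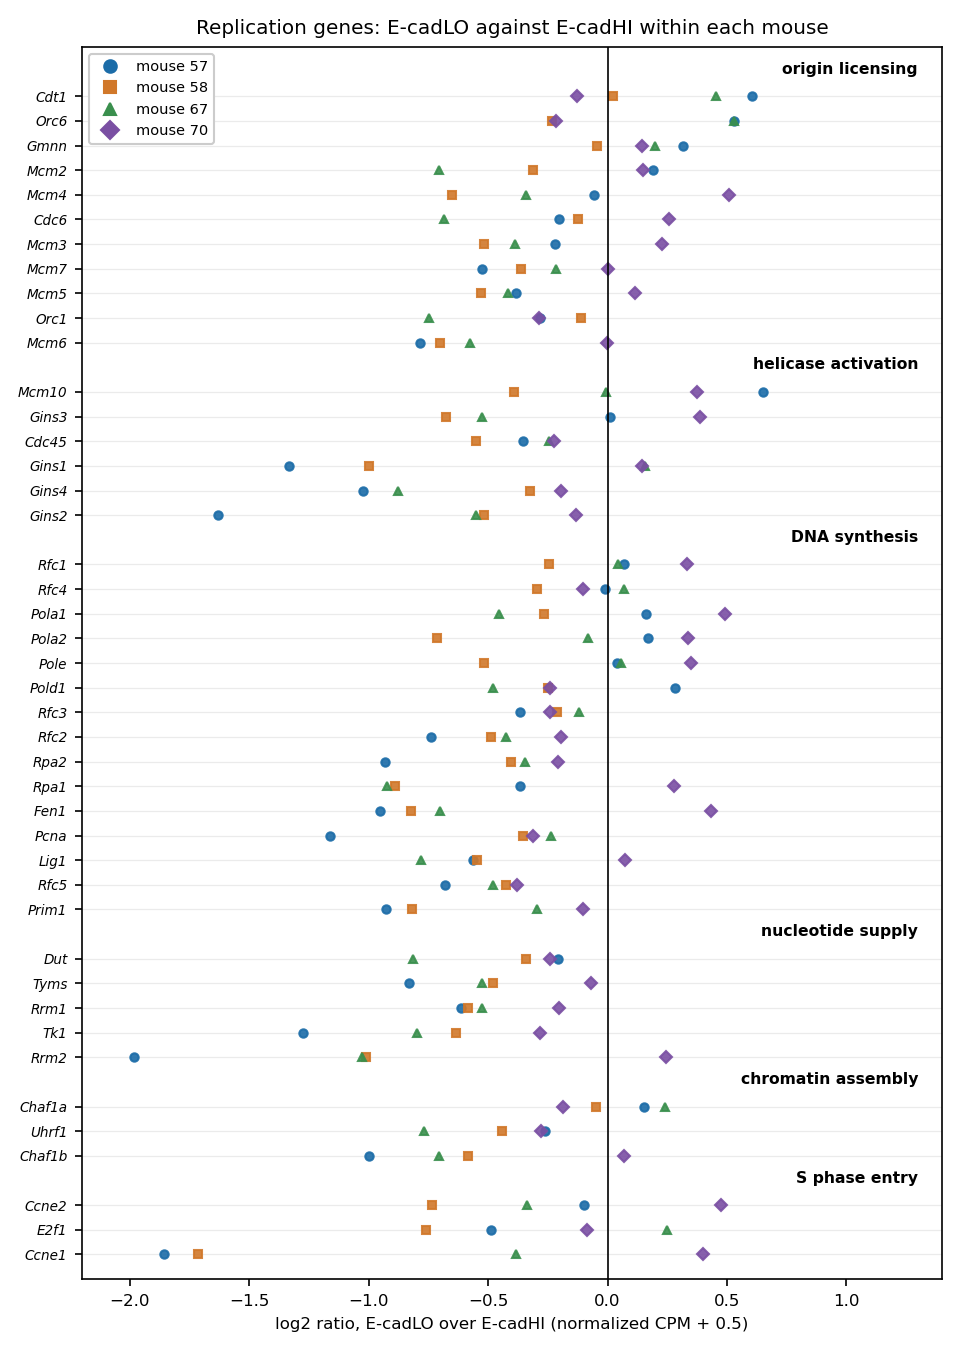
Within-mouse log2 ratio of E-cadLO to E-cadHI (normalized CPM plus 0.5) for the 43 genes, grouped by role and ordered within each role by fitted log2 fold change, with 1 point per mouse. Points of mice 57, 58 and 67 lie mostly left of 0 (31, 42 and 34 genes lower), those of mouse 70 fall on both sides (22 lower), and the 5 nucleotide supply genes are lower in all mice except Rrm2 in mouse 70.

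Nucleotide supply was the role with the lowest median log2 fold change, -0.50. Each of its 5 genes had a lower level with an unadjusted p under 0.05 in edgeR, beside 5.81% of all genes. Rrm2, the S phase regulated small subunit of ribonucleotide reductase (chr12:24708241-24714146), stood at 376, 379, 411 and 263 CPM in E-cadHI cells and 94.9, 187, 201 and 312 CPM in E-cadLO cells. It was lower by 74.7%, 50.4% and 51% in mice 57, 58 and 67 and higher by 18.5% in mouse 70, so the groups overlapped. Its log2 fold change was -0.85 (SE 0.32, adjusted p = 0.317 in edgeR), the lowest of the 43. Rrm1, the large subunit of the same enzyme (chr7:102441695-102469771), stood at 386, 393, 367 and 280 CPM in E-cadHI and 252, 262, 255 and 243 CPM in E-cadLO cells, without overlap. Its log2 fold change was smaller, at -0.50 (SE 0.15, adjusted p = 0.287 in edgeR). The ratio of Rrm2 to Rrm1 CPM was 0.976, 0.964, 1.12 and 0.940 in E-cadHI and 0.377, 0.716, 0.790 and 1.28 in E-cadLO cells, so it was steady in one population and spread widely in the other.

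Tk1, the thymidine kinase of the salvage pathway (chr11:117815526-117826092), measured 274, 288, 362 and 250 CPM in E-cadHI and 113, 186, 208 and 205 CPM in E-cadLO cells. All E-cadHI libraries exceeded all E-cadLO libraries, by 1.65-fold in the fit (log2 fold change -0.72, SE 0.22, adjusted p = 0.282 in edgeR), and the decrease was smallest in mouse 70, at 17.9%. Tyms, the thymidylate synthase (chr5:30058202-30073617), measured 152, 153, 152 and 131 CPM in E-cadHI and 85.3, 110, 105 and 124 CPM in E-cadLO cells (log2 fold change -0.47, SE 0.15, adjusted p = 0.298 in edgeR). The gap between the groups was narrow for Tyms, with mouse 70 supplying both the lowest E-cadHI and the highest E-cadLO value. Dut, which degrades dUTP (chr2:125247190-125258608), measured 67.8, 70.3, 69.1 and 58.0 CPM in E-cadHI and 58.6, 55.3, 39.0 and 49.1 CPM in E-cadLO cells. It was lower in every mouse, by 13.5% to 43.2%, with 1 E-cadLO library above the lowest E-cadHI library (log2 fold change -0.39, SE 0.17, adjusted p = 0.345 in edgeR).

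**Figure D3:**
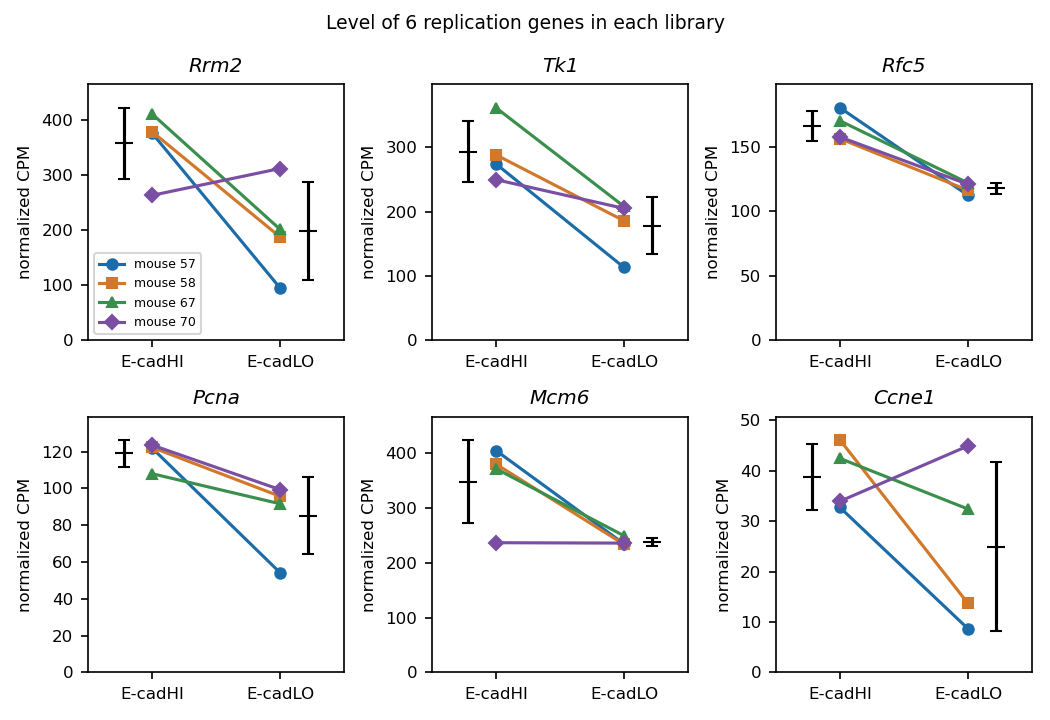
Normalized CPM of Rrm2, Tk1, Rfc5, Pcna, Mcm6 and Ccne1 in each library, with a line for each mouse and black marks for the mean ± SD of 4 libraries per population. Rfc5, Tk1 and Pcna are lower in E-cadLO cells of all 4 mice without overlap, while Rrm2 and Ccne1 are higher in E-cadLO cells of mouse 70.

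In the DNA synthesis role, 14 of 15 genes had a log2 fold change below 0 (median -0.46). At an unadjusted p under 0.05 in edgeR, 6 were lower, beside 5.81% of all genes. Rfc5, a subunit of the clamp loader (chr5:117378103-117389047), stood at 180, 156, 170 and 157 CPM in E-cadHI and 112, 116, 122 and 121 CPM in E-cadLO cells. The difference was similar between mice, lower by 37.6%, 25.5%, 28.2% and 23.2%, mouse 70 included (log2 fold change -0.49, SE 0.13, adjusted p = 0.262 in edgeR). Rfc2, another loader subunit (chr5:134581366-134601805), measured 210, 162, 193 and 179 CPM against 126, 116, 144 and 156 CPM, also without overlap (log2 fold change -0.46, SE 0.16, adjusted p = 0.298 in edgeR). Rfc5 shares 10.7% of its exon bases with Wsb2, and Rfc2 shares 15.1% with Lat2, both on the opposite strand. The large subunit Rfc1 (chr5:65261850-65335670) had overlapping groups, at 60.2, 70.8, 72.5 and 54.1 CPM in E-cadHI and 63.2, 59.6, 74.7 and 68.3 CPM in E-cadLO cells, with a log2 fold change of 0.05 (SE 0.16). The difference between loader subunits was not tested. Rfc3 and Rfc4 had log2 fold changes of -0.24 and -0.07.

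Pcna, the sliding clamp that holds polymerases on DNA (chr2:132249162-132253314), measured 122, 122, 108 and 124 CPM in E-cadHI and 54.2, 95.7, 91.6 and 99.3 CPM in E-cadLO cells. The groups did not overlap, and the E-cadLO library of mouse 57 lay far below the others (log2 fold change -0.48, SE 0.20, adjusted p = 0.337 in edgeR). Prim1, the primase subunit that makes RNA primers (chr10:128015168-128030037), measured 104, 108, 105 and 91.1 CPM against 54.3, 61.2, 85.1 and 84.8 CPM (log2 fold change -0.51, SE 0.18, adjusted p = 0.303 in edgeR). Rpa2, part of the complex that coats single-stranded DNA (chr4:132768332-132778752), measured 137, 110, 135 and 121 CPM against 71.9, 82.8, 106 and 104 CPM (log2 fold change -0.46, SE 0.17, adjusted p = 0.311 in edgeR). For both genes the E-cadLO values of mice 67 and 70 came close to the lowest E-cadHI library. The catalytic polymerase subunits had log2 fold changes of -0.09 for Pola1, -0.15 for Pold1 and -0.10 for Pole, and SEs of 0.30, 0.33 and 0.32, and their difference from the genes above was not tested. Of the enzymes that process and join lagging strand fragments, Lig1 had a log2 fold change of -0.49 (SE 0.18) and Fen1 of -0.47 (SE 0.37). Fen1 shares 84.2% of its exon bases with genes on the opposite strand, and the strand setting of the counting is not stated in the sources used here.

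Of the origin licensing genes, 8 of 11 were below 0, with a median log2 fold change of -0.18. At an unadjusted p under 0.05 in edgeR, 1 gene, Mcm6, was lower, beside 5.81% of all genes. Within the Mcm2 to Mcm7 ring, which is built from 1 copy of each subunit, all 6 log2 fold changes were below 0. Mcm6 (chr1:128331590-128359664) stood at 404, 380, 371 and 236 CPM in E-cadHI and 234, 233, 249 and 236 CPM in E-cadLO cells. Its E-cadLO values were nearly constant, and the E-cadHI library of mouse 70 was already at that level (log2 fold change -0.55, SE 0.19, adjusted p = 0.298 in edgeR). The other subunits had log2 fold changes of -0.16 (Mcm2, SE 0.26), -0.25 (Mcm3, SE 0.18), -0.16 (Mcm4, SE 0.23), -0.33 (Mcm5, SE 0.18) and -0.29 (Mcm7, SE 0.18), and their groups overlapped. All 6 levels of E-cadHI cells were lowest in mouse 70.

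On a per-length scale, the mean level in E-cadHI cells was 18.6 CPM per kilobase of exon for Mcm2 (chr6:88883474-88898780), 43.7 for Mcm3 (chr1:20802968-20820312), 46.4 for Mcm4 (chr16:15623897-15637400), 40.01 for Mcm5 (chr8:75109569-75128439), 74.6 for Mcm6 and 60.8 for Mcm7 (chr5:138164583-138172422). In E-cadLO cells the means per kilobase were 16.6, 36.9, 41.5, 31.8, 51.0 and 49.7 in the same order. Mcm2 had the lowest mean in both populations and Mcm6 the highest, although Mcm6 and Mcm7 lay within their spread in E-cadLO cells (1.58 and 5.18, SD, n = 4), while Mcm3, Mcm4 and Mcm5 did not differ beyond their spread of 8.62, 12.3 and 8.36 (SD, n = 4) in E-cadHI cells. Mcm6 made up a fraction of 0.293, 0.271, 0.283 and 0.279 of the summed CPM of the 6 subunits in E-cadHI cells and of 0.220, 0.239, 0.255 and 0.254 in E-cadLO cells. This share was lower in E-cadLO cells of every mouse, mouse 70 included, and the groups did not overlap. Mcm6 had the lowest log2 fold change of the 6 subunits, so a lower share on average follows from the same values and is no separate result.

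**Figure D4:**
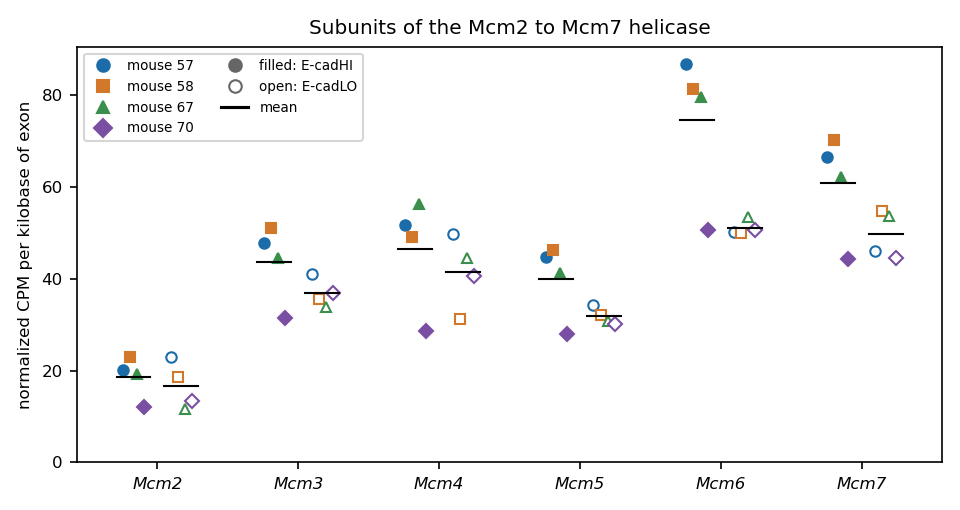
Normalized CPM per kilobase of exon of the 6 helicase subunits in each library, with filled symbols for E-cadHI, open symbols for E-cadLO, a symbol shape per mouse and black lines for the mean of 4 libraries. Filled symbols of mouse 70 lie below those of the other mice in all 6 genes, and the 4 open symbols of Mcm6 lie close together around a mean of 51.0.

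The remaining licensing genes included the 3 whose fitted values were higher in E-cadLO cells. Cdt1, the factor that loads the helicase (chr8:122568015-122573554), measured 40.5, 49.3, 37.9 and 38.6 CPM in E-cadHI and 61.9, 50.1, 52.1 and 35.3 CPM in E-cadLO cells, with a log2 fold change of 0.26 (SE 0.20, adjusted p = 0.533 in edgeR). Gmnn, its inhibitor geminin (chr13:24751845-24761923), measured 61.8, 64.7, 58.8 and 63.6 CPM against 77.0, 62.6, 67.5 and 70.4 CPM, with a log2 fold change of 0.16 (SE 0.13, adjusted p = 0.568 in edgeR). Both were higher in 3 of 4 mice and overlapped, and both kept a positive sign under every scaling tried. The third was Orc6, at 0.20 (SE 0.21). Orc1, the subunit of the origin recognition complex that binds origins in G1 (chr4:108579423-108614833), went the other way, at 17.3, 16.7, 19.9 and 15.6 CPM in E-cadHI and 14.1, 15.4, 11.7 and 12.7 CPM in E-cadLO cells. Its groups were separated by a margin of less than 1 CPM (log2 fold change -0.37, SE 0.22, adjusted p = 0.450 in edgeR). Cdc6, the other loading factor, had a log2 fold change of -0.18.

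Among helicase activation genes, 5 of 6 were below 0, with a median log2 fold change of -0.37. Gins2, a GINS subunit (chr8:120578633-120589304), measured 64.6, 50.3, 63.4 and 53.1 CPM in E-cadHI and 20.5, 35.0, 43.2 and 48.4 CPM in E-cadLO cells, without overlap (log2 fold change -0.65, SE 0.26, adjusted p = 0.321 in edgeR). It was lower by 67.7% in mouse 57 and by 8.76% in mouse 70, and the log2 fold change was -0.42 without mouse 57. Gins2 shares 67.3% of its exon bases with Gse1 on the opposite strand, so its reads and those of Gse1 may not be separable. Gins4, whose exons are not shared, had a log2 fold change of -0.58 (SE 0.20), Gins1 of -0.40 (SE 0.34) and Gins3 of -0.19 (SE 0.27). Mcm10, which helps activate the loaded helicase (chr2:4989714-5012791), was uneven, at 74.2, 71.2, 49.8 and 36.9 CPM in E-cadHI and 117, 54.2, 49.5 and 48.1 CPM in E-cadLO cells. Its fitted log2 fold change was 0.21 (SE 0.34) and became -0.22 without the E-cadLO library of mouse 57. Cdc45, the partner of GINS in the active helicase, was lower in all 4 mice (log2 fold change -0.35, SE 0.19).

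Of the 3 chromatin assembly genes, 2 had log2 fold changes below 0. Chaf1b, the middle subunit of the CAF-1 histone chaperone (chr16:93883901-93906115), measured 115, 113, 105 and 79.1 CPM in E-cadHI and 57.3, 75.1, 64.1 and 83.0 CPM in E-cadLO cells (log2 fold change -0.56, SE 0.18, adjusted p = 0.298 in edgeR). Mouse 70 alone had the higher level in E-cadLO cells. Chaf1a, the large subunit of the same chaperone (chr17:56040416-56068026), measured 23.7, 34.6, 19.3 and 21.3 CPM against 26.4, 33.4, 23.0 and 18.6 CPM, with a log2 fold change of 0.03 (SE 0.26) whose sign turned in several fits that left out a mouse or library, and it shares 52.5% of its exon bases with Ubxn6 on the opposite strand. Uhrf1, which carries DNA methylation through replication, was lower in all 4 mice (log2 fold change -0.46, SE 0.29) with overlapping groups.

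The S phase entry genes, all 3 with a log2 fold change below 0, varied between mice. Ccne1, cyclin E1 (chr7:38097984-38107534), measured 32.7, 46.1, 42.5 and 34.0 CPM in E-cadHI and 8.67, 13.7, 32.4 and 44.9 CPM in E-cadLO cells. It was lower by 72.4%, 69.6% and 23.4% in mice 57, 58 and 67 and higher by 31.8% in mouse 70 (log2 fold change -0.64, SE 0.46, adjusted p = 0.514 in edgeR). The fitted value was -0.34 without mouse 58, -1.14 without mouse 70 and -1.34 without mouse 70 in the blocked fit. Ccne2, cyclin E2 (chr4:11191351-11204779), measured 32.5, 40.3, 51.7 and 30.2 CPM against 30.3, 24.0, 40.8 and 42.2 CPM, with the same directions by mouse and a log2 fold change of -0.17 (SE 0.25). Ccne2 shares 17.4% of its exon bases with Ints8 on the opposite strand. The ratio of Ccne1 to Ccne2 was 1.01, 1.14, 0.822 and 1.12 in E-cadHI and 0.286, 0.570, 0.794 and 1.06 in E-cadLO cells. It was lower in E-cadLO cells of all 4 mice, by little in mice 67 and 70, and the groups overlapped. E2f1, the transcription factor, had a log2 fold change of -0.25 (SE 0.36) at 4.67 to 10.8 CPM.

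Other genes of the pathway were examined next. Of 55 further replication genes, 38 had a log2 fold change below 0, with a median of -0.13, 0 passed the adjusted test in edgeR, and 7 were lower and 3 higher at an unadjusted p under 0.05, beside 5.81% and 8.16% of all genes. Ung, which removes uracil from DNA, had the lowest value, -0.68 (SE 0.24, adjusted p = 0.301 in edgeR), and Rpa3, the small subunit of the single-strand binding complex, came next at -0.67 (SE 0.19, adjusted p = 0.272 in edgeR). Both were lower in all 4 mice without overlap, as was Rpa2 of the same complex. Rpa1, also of that complex, had overlapping groups (log2 fold change -0.46, SE 0.21) and was higher by 21.4% in E-cadLO cells of mouse 70. At the other end stood Rrm2b, the p53-inducible small subunit that can replace Rrm2 in ribonucleotide reductase, at 13.1, 9.65, 8.74 and 6.39 CPM in E-cadHI and 21.3, 11.6, 29.5 and 23.3 CPM in E-cadLO cells. Rrm2b was higher in E-cadLO cells of all 4 mice, with a log2 fold change of 1.18 (SE 0.34, adjusted p = 0.282 in edgeR) and overlapping groups, whereas that of Rrm2 was -0.85. E2f2, an E2F factor, had a log2 fold change of 1.07 (SE 0.38), and Ccna2, the cyclin of S and G2, of -0.44 (SE 0.21).

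G2/M and mitosis genes, a read of the later cell cycle, had 21 of 38 log2 fold changes below 0, a median of -0.06, and 5 lower and 2 higher at an unadjusted p under 0.05, beside the same shares of all genes. By mouse, 16, 34, 29 and 10 of the 38 were lower in E-cadLO cells of mice 57, 58, 67 and 70, so most were lower in mice 58 and 67. Cdk1 (-0.68, SE 0.17, adjusted p = 0.253 in edgeR) and Aurkb (-0.57, SE 0.17), kinases of mitosis, were lower in all 4 mice without overlap. Ndc80 of the kinetochore (0.59, SE 0.26) and Anln of the cleavage furrow (0.53, SE 0.22) were the highest in fitted value. Mki67, the common proliferation marker, measured 93.0, 150, 140 and 81.7 CPM in E-cadHI and 127, 107, 125 and 93.4 CPM in E-cadLO cells, with a log2 fold change of -0.04 (SE 0.22) and no common direction. Top2a, a topoisomerase of S and G2, was at -0.40 (SE 0.20). The summed level of the replication genes divided by that of the G2/M genes was 1.11, 1.12, 0.943 and 1.04 in E-cadHI and 0.729, 0.919, 0.833 and 0.952 in E-cadLO cells. This ratio was lower in E-cadLO cells of each mouse, though the groups overlapped, and the same held for nucleotide supply over G2/M genes (0.276, 0.282, 0.254 and 0.268 against 0.1248, 0.207, 0.184 and 0.234), where they did not. No test was run on these ratios, since the genes were chosen with earlier results known.

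Epithelial markers varied between mice. Of 15, 10 had a log2 fold change below 0 (median -0.17). Epcam, an epithelial adhesion protein, was lower in E-cadLO cells of all 4 mice (log2 fold change -0.75, SE 0.34, adjusted p = 0.363 in edgeR), Ehf was next at -0.66, and Ovol1 and Krt7 were higher at 1.18 and 0.68. The summed level of these markers changed by -46.4%, 20.4%, 37.0% and -10.9% in mice 57, 58, 67 and 70. Their median log2 ratios were -0.86, 0.36, 0.03 and -0.17, with 13, 5, 7 and 10 of the 15 lower. The sum of mouse 67 thus rose while its median marker was nearly level. The part of epithelial cell content in the replication gene differences was not tested.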

How the data were processed

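Per the labels and the study's methods, mRNA from sorted E-cadHI and E-cadLO cells was made into TruSeq single-read libraries. The authors deposited 1 table of raw read counts per gene, not normalized. The submitters' processing notes name HISAT2 (2.1.0), HTSeq and the build GRCm38, whereas the methods name another counting program, and settings for strand and multiply mapped reads are not given in the sources used here. All 8 count columns were mapped by their names to samples. The table's 365 rows without a gene identifier, 0.0636% to 0.0954% of the counts, were left out. Library totals were 9102781 to 15769200, and the precision of each comparison rests on 4 mice per population.

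Genes were filtered with edgeR's filterByExpr (edgeR 4.0.16, R 4.3.3), leaving 13598. E-cadLO was compared with E-cadHI by the quasi-likelihood test with TMM factors, without a block, because the study states none, and p-values were adjusted by Benjamini and Hochberg with a threshold of 0.05. The same mouse gave 1 library of each population. Deviations from the group means correlated at 0.381, 0.248, 0.272 and 0.692 between libraries of mice 57, 58, 67 and 70, and at most 0.144 between mice, so the numbers pair the samples and a second fit took mouse number as a replicate block. DESeq2 (1.42.0), other scalings and filters, a robust fit, each mouse left out and, after seeing the data, each library left out were the alternatives. The fits were tested on simulated counts, with changes larger than those fitted for the replication genes and with no difference between mice. That test does not show how well changes of the size described here are called. Within-mouse ratios are log2 of normalized CPM plus 0.5. Exon lengths and overlaps came from the GENCODE annotation of GRCm38, coordinates from the deposited table, and promoter letters from RefSeq (GRCm38.p6).

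The 43 genes, the other lists and the tests were chosen with earlier results of these data known, so no list was tested as a set. Described in full were, for each of the 6 roles, the genes with the highest level and with the highest and lowest log2 fold change, any with an adjusted p under 0.05 or with 1 direction in 4 mice and no overlap, the Mcm2 to Mcm7 subunits, Cdt1, Gmnn, Ccne1 and Ccne2 (26 genes). From each of the other 3 cell cycle and epithelial lists the 2 highest and 2 lowest were named, with Mki67, Top2a, Ccna2 and Epcam. Genes named beside these were chosen after their values were seen.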

Additional observations from a re-analysis of the deposited data

Results flagged for a closer look

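In each group of 4 libraries or 4 mice, the highest or lowest value was compared with its nearest neighbour by Dixon's ratio at the 95% level. Of 183 groups examined, 20 held such a value, where chance gives about 1 in 20, or 9.15.

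The E-cadHI library of mouse 70 was set apart most often among the replication genes. Its summed level of the 43 genes was 3819 CPM, with the other E-cadHI libraries at 5045 to 5112, and its Mcm2 to Mcm7 sum was 848 CPM, with the others at 1313 to 1403. In the same library Cdc45 was at 35.4 CPM, Gins1 at 19.5, Rpa1 at 138 and Tyms at 131, each below the other 3, and the 55 further replication genes summed to 2490 CPM against 3009 to 3067. Marker sums were high there: 3546 CPM for astrocytes, 8595 for oligodendrocytes, and 62.8 for fibroblast and mural cells. Its E-cadLO partner was high in astrocyte (9852 CPM) and oligodendrocyte markers (34452 CPM).

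The E-cadLO library of mouse 57 was set apart by Mcm10 at 117 CPM, above 48.1 to 54.2 in the others, by Pcna at 54.2 CPM, below 91.6 to 99.3, and by fibroblast and mural markers at 1197 CPM. The within-mouse log2 ratio of Pcna in mouse 57 was -1.16, beside -0.35 to -0.24 in the other mice.

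Single values apart from these were Mcm6 at 249 CPM in the E-cadLO library of mouse 67, Pcna at 108 CPM in the E-cadHI library of mouse 67, chromatin assembly genes at a sum of 174 CPM in the E-cadLO library of mouse 58, and a median log2 ratio of 0.76 for oligodendrocyte markers in mouse 58, where the others were 2.01 to 2.102.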

How the results depend on the processing

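The median log2 fold change of the 43 genes stayed below 0 in every alternative, and the number of genes below 0 was 37 in each alternative that kept all libraries. With a replicate block for mouse, edgeR called 0 of the 43 genes, as without it. It gave 37 below 0 and a median of -0.35. The pairing thus changed no edgeR call among the 43, whereas 0.728% of all genes were called higher with the block and 0% without it. DESeq2 with the replicate block called 3 lower: Tk1 (-0.73, adjusted p = 0.0124), Rrm2 (-0.94, adjusted p = 0.0447) and Rfc5 (-0.48, adjusted p = 0.0485), and the cause was not tested. Total counts moved the median of mouse 57 to -0.063, and that of all genes from 0.02 to 0.30.

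Leaving out mice or single libraries gave 3 to 20 genes lower at an unadjusted p under 0.05: 6 without mouse 57, 8 without mouse 58, 4 without mouse 67 and 16 without mouse 70, 3 and 4 with the block and without mice 58 and 67, and 20 without the E-cadHI library of mouse 70. Fewer samples enter these fits, and no share of all genes is given beside their counts. The median then ranged from -0.45 to -0.25, and 32 to 39 genes were below 0. Genes near 0 changed sign in these fits. Without the block the values ranged from -0.11 to 0.23 for Chaf1a, -0.22 to 0.43 for Mcm10, -0.38 to 0.0138 for Mcm2 and from -0.0334 to 0.154 for Rfc1. With it, they reached -0.0205 and -0.0169 for Chaf1a, -0.0310 for Mcm10, 0.0218 for Mcm2, 0.0501 for Mcm4, -0.0335 for Rfc1 and 0.0264 for Ccne2.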
